A study of Mus musculus with 4 samples.

Results

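Mouse bone marrow mesenchymal stem cells without functional Snail1 (Snail1-KO) were set against cells with it (Snail1-WT), both after 2 h of TGF-b1. The comparison used 2 of the 4 Affymetrix arrays of the study, 1 per genotype. The other 2 arrays hold untreated cells of the same genotypes, and their values are given beside many of the results. All 4 groups are cultures derived from bone marrow, and the arrays differ by genotype, TGF-b1 treatment or both. The sources used here do not say how the knockout was made, whether a Cre line or a single clone was involved, or whether cultures came from separate animals. With 1 array per group there is no replicate check and no test, and genotype cannot be told apart from any other difference between the cultures. Probe sets with 1 gene symbol gave 22180 genes, each represented by the brightest of its probe sets. Of these, 13308 were analysed, the 60% with the highest mean over the 4 arrays (at least 4.51). Levels are RMA log2 values, and every difference is Snail1-KO minus Snail1-WT on that scale, where 1 is 2-fold.

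Snail1, encoded by Snai1, is a zinc finger repressor that binds E-box sequences in promoters and is best known for silencing epithelial genes during the epithelial to mesenchymal transition. TGF-b1 binds a pair of serine/threonine kinase receptors, which phosphorylate SMAD proteins that then switch on target genes within hours, and Snai1 is itself such a target. Mesenchymal stem cells are stromal cells able to give rise to bone, fat and cartilage. They make extracellular matrix and support blood stem cells in the marrow. In such bulk samples, fewer cells of a type and less RNA per cell cannot be told apart.

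The stromal label was checked against markers. In treated Snail1-WT and Snail1-KO cells the PDGF receptor genes Pdgfrb (11.59 and 11.35) and Pdgfra (10.62 and 10.13), the integrin gene Itgb1 (10.32 and 10.31), endoglin (Eng, 9.65 and 9.47) and Cd44 (8.70 and 8.82) all passed the filter. In the list of mesenchymal stem cell markers 16 of 18 measured genes passed, with median levels of 6.16 and 6.03 over all measured. Among its dimmer members were Thy1 (5.67 and 5.19), Ly6c1 (4.54 and 5.55) and Cd200 (3.95 and 5.85). The pan-leukocyte gene Ptprc (3.42 and 3.78), the macrophage gene Adgre1 (3.70 and 3.47) and the epithelial gene Epcam (4.03 and 3.84) did not pass. Other markers of blood, endothelial and epithelial cells did pass: the macrophage genes Cd68 (6.09 and 6.05) and Cd14 (5.53 and 6.12), the endothelial genes Pecam1 (4.40 and 4.62) and Cdh5 (4.67 and 4.87), and the epithelial gene Cdh1 (4.79 and 4.72). Of 19 measured haematopoietic markers 5 passed, and the log2 levels of all 19 summed to 82.2 and 80.7. Of 16 measured endothelial markers 6 passed, and the levels of all 16 summed to 69.7 and 68.1. In these lists 14 and 10 genes lay below the filter, so the sums do not measure cell content. Array medians lay between 4.58 and 4.63. The proliferation list (26 genes) had a median difference of -0.04 and the housekeeping list (14 genes) 0.05.

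Snai1 measured 7.63 in treated Snail1-WT cells and 5.34 in treated Snail1-KO cells, against 6.69 and 5.09 in the untreated pair. The direction was that of the labels, with a difference of -2.29 with TGF-b1 and -1.60 without. On chromosome 2, the 16 analysed genes nearest to Snai1 differed by -0.58 to 0.49. The sources used here do not place the Snai1 probes inside or outside the deletion, so the signal left in Snail1-KO cells measures no protein. Snail1 is known to bind an E-box in its own promoter. The upstream 250 bases of the mouse gene (RefSeq, GRCm38.p6, chr2:167537945-167538194, plus strand) hold 1 copy of the Snail E-box (CAGGTG, here read as its complement CACCTG), which starts 126 bases before the transcription start and is in capitals below.
Snai1: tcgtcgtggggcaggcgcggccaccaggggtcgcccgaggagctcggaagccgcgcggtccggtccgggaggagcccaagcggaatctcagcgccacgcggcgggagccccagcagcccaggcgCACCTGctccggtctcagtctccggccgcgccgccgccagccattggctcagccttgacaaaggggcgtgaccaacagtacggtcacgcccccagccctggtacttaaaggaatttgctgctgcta

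Across all analysed genes the treated difference had a median of -0.0024, and 95% of genes lay between -0.62 and 0.75. At least 2-fold higher in Snail1-KO cells were 142 genes, or 1.07%, and at least 2-fold lower were 84, or 0.631%. At 1.5-fold these were 684 genes (5.14%) and 399 genes (2.998%). As a yardstick in place of replicates, the SD expected of a difference was taken from how far the treated and untreated genotype differences of a gene disagreed. It was 0.22 in the dimmest quintile of genes and 0.09 in the brightest, and it holds any true change of the genotype effect by TGF-b1. It leaves out spread between cultures that both pairs share. Of the 142 higher genes 19 measured below 4.51 in treated Snail1-WT cells, and of the 84 lower genes 11 did so in treated Snail1-KO cells, so the sizes of these differences are uncertain.

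**Figure D1:**
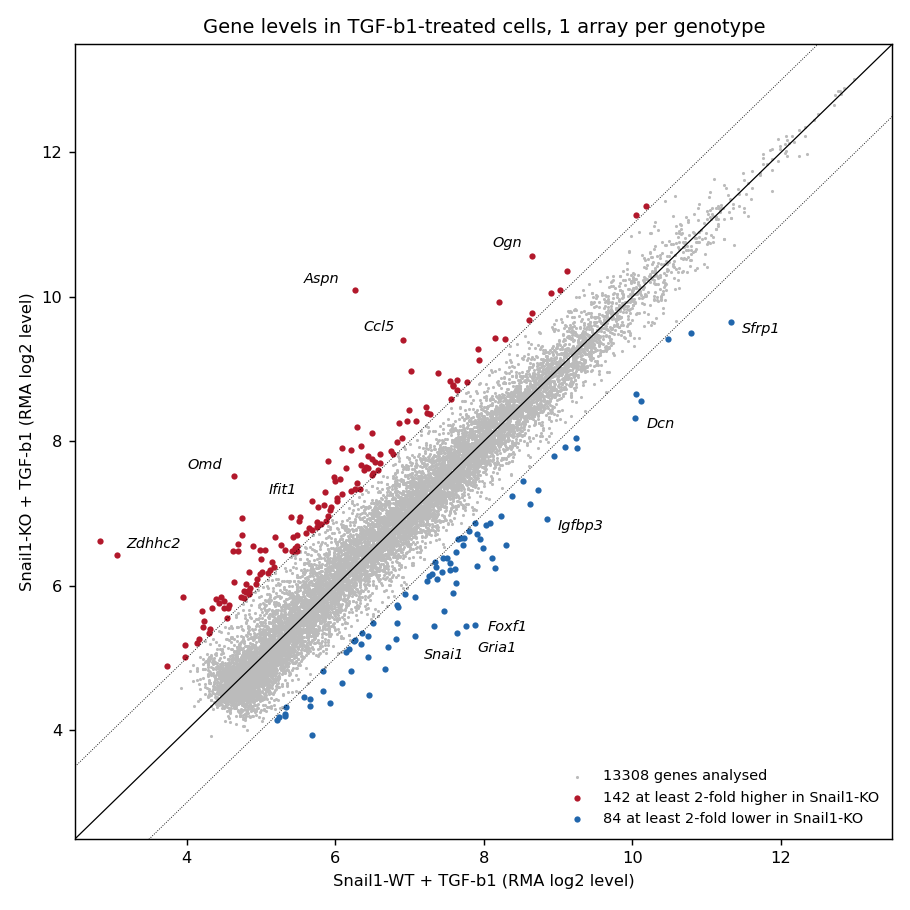
Level of each of 13308 genes in TGF-b1-treated Snail1-KO cells (vertical axis, RMA log2) against treated Snail1-WT cells (horizontal axis, RMA log2), 1 array per genotype. Dotted lines mark a 2-fold difference, beyond which lie 142 genes above and 84 below. Aspn stands furthest above the diagonal among named genes and Foxf1 furthest below.

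The largest positive difference of a named gene was that of asporin. Asporin (Aspn), a matrix proteoglycan that binds TGF-b1, measured 6.26 in treated Snail1-WT cells and 10.10 in treated Snail1-KO cells, a difference of 3.83, and 5.54 and 9.78 in the untreated pair. The scavenger receptor gene Scara5, whose product takes up ferritin, measured 4.63 and 6.48 with TGF-b1 and 5.04 and 6.60 without it. Spon2, which encodes a secreted matrix protein, measured 5.90 and 7.72 in the treated pair and 6.13 and 7.59 in the untreated pair. Both genes were thus higher by 1.46 to 1.85 in either pair, and treated and untreated levels of a genotype lay close together.

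The protease inhibitor gene Serpinb8 was at 4.69 in treated Snail1-WT and 6.49 in treated Snail1-KO cells (untreated 5.01 and 6.60). Ranbp3l, which encodes a Ran-binding protein, was at 8.20 and 9.93 with TGF-b1 and at 9.19 and 10.40 without. It was lower with TGF-b1 in both genotypes and higher in Snail1-KO cells with and without it. For Uchl1, a neuronal deubiquitinase gene, the treated levels were 6.50 and 8.11 and the untreated ones 6.66 and 8.16, but a second, dimmer probe set differed by only 0.07.

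The integrin beta 3 gene Itgb3, whose product pairs with the alpha v subunit as a receptor for vitronectin, measured 6.35 in treated Snail1-WT and 7.93 in treated Snail1-KO cells. In the untreated pair it measured 5.07 and 5.92. The genotype difference was thus 1.59 with TGF-b1 and 0.85 without, and the 4 levels stood in the ascending order untreated Snail1-WT, untreated Snail1-KO, treated Snail1-WT, treated Snail1-KO. Ccl9, a chemokine gene next to Ccl5 in the chemokine cluster of chromosome 11, measured 7.38 and 8.95 with TGF-b1 and 7.83 and 9.15 without. The netrin receptor gene Unc5c measured 5.40 and 6.95 in the treated pair, and 5.82 and 7.03 in the untreated pair. Mfsd6 and the glycosyltransferase gene Glt8d2 were higher by 1.51 and 1.48.

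Angpt1, the ligand that activates the TIE2 receptor on endothelial and blood stem cells, measured 6.99 and 8.44 in the treated pair and 7.30 and 8.54 in the untreated pair. Its second probe set, at about the level of background, differed by 0.03. The BMP antagonist gene Grem1 was higher by 1.08, the periostin gene Postn by 1.07, and Igfbp6, which binds IGF2 in preference to IGF1, by 1.16. Prg4, which encodes the joint lubricant lubricin, measured 4.64 and 6.05 in the treated pair and 3.99 and 4.71 in the untreated pair. Each of these 5 genes was also higher in untreated Snail1-KO cells, by 0.71 to 1.24.

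**Figure D2:**
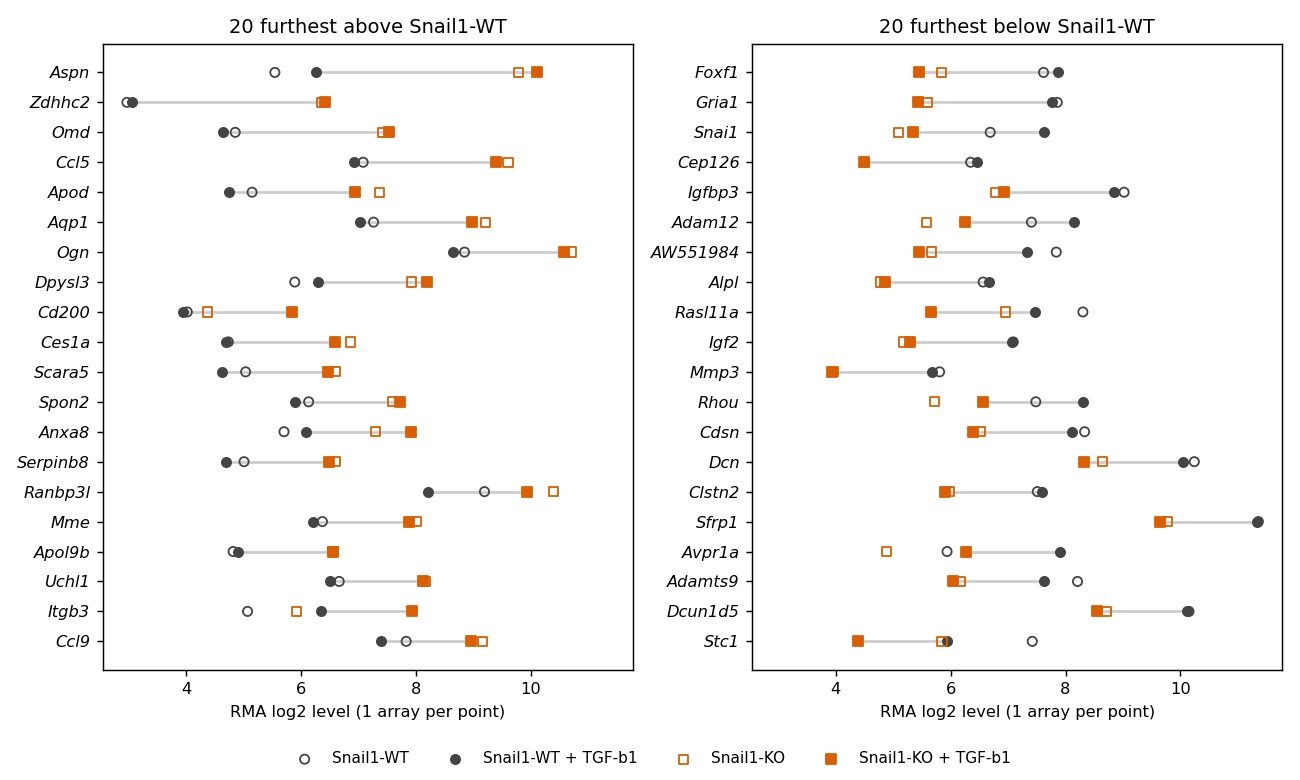
RMA log2 level on each of the 4 arrays for the 20 named genes furthest above Snail1-WT (left) and the 20 furthest below (right) in the treated pair. Circles are Snail1-WT and squares Snail1-KO, filled with TGF-b1 and open without, 1 array per point, and grey lines join the treated pair. For Cd200 the open symbols lie close together at 4.02 and 4.37, while the filled ones stand at 3.95 and 5.85.

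The WNT-binding protein gene Sfrp1 measured 11.33 in treated Snail1-WT cells and 9.65 in treated Snail1-KO cells, and 11.35 and 9.78 in the untreated pair. Pdgfd, a ligand of the PDGF beta receptor, measured 6.71 and 5.16 with TGF-b1 and 7.06 and 4.94 without. Stc1, which encodes the hormone stanniocalcin, measured 5.94 and 4.38 in the treated pair and 7.42 and 5.85 in the untreated pair. In each of these genes both Snail1-KO levels lay below the Snail1-WT level of the same treatment by more than 1.5 log2 units.

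The vasopressin receptor gene Avpr1a measured 7.90 in treated Snail1-WT and 6.27 in treated Snail1-KO cells, against 5.94 and 4.89 untreated. Its level was higher with TGF-b1 in both genotypes, and the treated Snail1-KO cells stood only slightly above the untreated Snail1-WT cells. Rasl11a, which encodes a small GTPase-like protein, measured 7.47 and 5.65 with TGF-b1 and 8.30 and 6.96 without. The matrix protease gene Adamts9 was at 7.63 and 6.04 in the treated pair and at 8.21 and 6.17 in the untreated pair. Nephronectin (Npnt), a ligand of the integrin alpha 8 beta 1, was at 6.45 and 5.02 in the treated pair, a difference of -1.43, and at 6.32 and 4.96 untreated. The ephrin-B1 gene Efnb1, a membrane-bound ligand of EPH receptors, was at 8.73 and 7.32, a difference of -1.41, and at 7.68 and 6.22 untreated.

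Further lower genes were the synaptic adhesion gene Clstn2 (-1.69), the glutamate transporter gene Slc1a6 (-1.55), the Mediator subunit gene Med17 (-1.49) and the carbonyl reductase gene Cbr1 (-1.43). Each differed in the same direction in the untreated pair, by -1.36 to -1.79. For Cbr1 a second probe set differed by -0.87.

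Genes of the interferon response lay mostly above Snail1-WT levels in the treated cells. Type I interferon switches on antiviral genes through an element in their promoters. Of 32 measured genes of the list, 29 were higher in treated Snail1-KO cells, with a median difference of 0.65 against -0.02 over all 22180 genes. In the untreated pair the median of the list was 0.76. Of these 32, 27 passed the filter and 5 did not. At least 2-fold higher were 9 of the 32 and none was 2-fold lower, against backgrounds among analysed genes of 1.07% and 0.631%. The list was drawn up with earlier results of these data known, so its direction is not independent evidence.

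Apol9b, an interferon-induced apolipoprotein L gene, measured 4.89 in treated Snail1-WT and 6.55 in treated Snail1-KO cells. Its neighbour Apol9a, a near copy with which probes may be shared, measured 7.89 and 8.41. Ifit1, whose product binds foreign RNA caps, measured 5.68 and 7.17 with TGF-b1 and 5.54 and 7.42 without. Both genes were higher without Snail1, treated or not.

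Genes of the signalling arm and further effectors were higher too. Stat2 measured 6.90 in treated Snail1-WT and 8.04 in treated Snail1-KO cells, and 7.35 and 8.22 in the untreated pair. The mitochondrial nucleotide kinase gene Cmpk2 measured 4.57 and 5.73 in the treated pair and 4.96 and 6.22 in the untreated pair. Xaf1, a pro-apoptotic interferon target, measured 6.29 and 7.42 treated and 6.65 and 7.86 untreated. The sensor of viral RNA Ddx58 (RIG-I), named after its values were seen, was at 6.58 and 7.61. At the other end, Irf1 differed by -0.21, Oas3 by -0.33 and Mx1, which did not pass the filter, by -0.14. The list was therefore not uniform: Ifit3 and Ifit2 differed by 0.20 and 0.17 beside Ifit1 at 1.49. Beside these, the leukocyte markers Ptprc and Adgre1 were under the filter, while Cd68 differed by -0.05 and Cd14 was higher by 0.59. The haematopoietic list had a median difference of -0.13 over 19 measured genes. The part of such cells in the interferon result was not tested.

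Antigen presentation genes, many of which interferon also controls, had a median of 0.17 over 13 measured genes. Tapasin (Tapbp), which loads peptides onto MHC class I, measured 7.64 and 8.86 in the treated pair and 7.71 and 8.94 in the untreated pair, but its second probe set differed by only 0.33. H2-T23, a non-classical class I gene, was at 4.96 and 5.94 treated and at 4.90 and 6.05 untreated. The transporter gene Tap1 differed by -0.04 and the immunoproteasome gene Psmb8 by -0.09.

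The promoters of interferon genes were searched for the interferon element, spelled as GAAA, any 2 bases and GAAA again on either strand, in RefSeq windows of 300 bases (250 upstream and 50 downstream of the start, GRCm38.p6). Of 27 windows of the analysed interferon genes 55.6% held it, against 2.86% of all 13075 windows of analysed genes, 7.63% of 131 windows of the 2-fold higher genes and 2.35% of 85 windows of the 2-fold lower genes. Of 22 interferon genes with a window, 13 had the element. The list is made of known interferon-response genes, so its high share follows from the choice of list and says nothing of these arrays. The 2-fold higher set is not separate from it. Its 8 genes with the element include Ifit1, Stat2, Apol9b and Ddx58 of the list. The upstream 250 bases of 3 of the 2-fold higher genes are shown, chosen after the matches were seen, with the element in capitals as it reads on the gene's strand. They lie at chr19:34640639-34640888 (Ifit1), chr10:128270248-128270497 (Stat2) and chr15:77728822-77729071 (Apol9b), all on the plus strand.
Ifit1: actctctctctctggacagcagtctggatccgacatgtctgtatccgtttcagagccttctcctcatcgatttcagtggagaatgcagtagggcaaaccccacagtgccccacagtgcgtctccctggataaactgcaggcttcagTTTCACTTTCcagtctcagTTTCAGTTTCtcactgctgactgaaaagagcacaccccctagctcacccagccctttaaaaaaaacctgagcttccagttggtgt
Stat2: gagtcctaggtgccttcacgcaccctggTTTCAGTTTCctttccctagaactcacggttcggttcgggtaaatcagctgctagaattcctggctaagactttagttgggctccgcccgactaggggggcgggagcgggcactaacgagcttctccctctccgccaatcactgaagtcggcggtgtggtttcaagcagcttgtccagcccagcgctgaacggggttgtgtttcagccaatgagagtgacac
Apol9b: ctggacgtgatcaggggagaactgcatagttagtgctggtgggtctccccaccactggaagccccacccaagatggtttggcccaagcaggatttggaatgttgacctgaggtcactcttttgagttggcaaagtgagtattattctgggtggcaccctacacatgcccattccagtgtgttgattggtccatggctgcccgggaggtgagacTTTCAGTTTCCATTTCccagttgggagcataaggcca

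Ifit1 holds 2 separate copies, which start 104 and 85 bases before the transcription start, and Stat2 holds 1 at 222 bases. In Apol9b 2 copies overlap, starting at 37 and 31 bases. The same search for the Snail E-box (CAGGTG, either strand) found it in 18.3% of windows of the 2-fold higher genes and 24.7% of those of the 2-fold lower genes, against 18.5% of all windows. Any E-box (CANNTG, which includes the former) was in 67.2%, 70.6% and 64.4%. The SMAD element CAGACA was in 20.6%, 21.2% and 16.7%, and the TEAD element CATTCC in 13.0%, 18.8% and 12.3%. A match is a description of the letters in these windows, and distal elements were not searched.

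Genes of sterol and fatty acid synthesis were all on the same side of 0. SREBP transcription factors switch these genes on together when membrane sterol is low. All 18 measured members passed the filter and were higher in treated Snail1-KO cells, by 0.03 to 1.14, with a median of 0.51. In the untreated pair 17 of 18 were higher, with a median of 0.37. Among all analysed genes 49.6% were above 0 in the treated pair.

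Farnesyl diphosphate synthase (Fdps), which makes the isoprenoid precursor of sterols, measured 8.28 in treated Snail1-WT and 9.42 in treated Snail1-KO cells, and 8.48 and 9.40 untreated. The desaturase gene Scd1 measured 9.98 and 10.84 in the treated pair and 10.33 and 10.99 in the untreated pair. Mvd and Hmgcs1, which act earlier in the mevalonate pathway, were higher by 0.71 and 0.68, and the squalene epoxidase gene Sqle by 0.63. Members with the smallest differences were Fasn (0.03) and Acaca (0.07), which make fatty acids. In all, 7 of the 18 reached 1.5-fold and 1 reached 2-fold, against 5.14% and 1.07% of analysed genes.

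The list of NRF2 targets, glutathione enzymes and detoxification enzymes went both ways. Among its 24 measured genes, 4 lay 2-fold or more above Snail1-WT levels and 2 as far below, against 1.07% and 0.631% of analysed genes, and the median was 0.10. The quinone reductase gene Nqo1, a classic NRF2 target, measured 9.03 and 10.10 in the treated pair and 9.09 and 9.87 in the untreated pair. The carboxylesterase genes Ces1a and Ces1f, neighbours on chromosome 8 with related sequences, were higher by 1.89 and 1.39, and the aldehyde dehydrogenase gene Aldh3a1 by 1.05. Cyp7b1, which hydroxylates oxysterols, differed by -1.01. Aldh1a2, which makes retinoic acid, differed by -1.16 but did not pass the filter. Other NRF2 targets did not share the direction of Nqo1: Txnrd1 differed by -0.61, Hmox1 by -0.31, Gclm by -0.14 and Gclc by 0.0037.

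**Figure D3:**
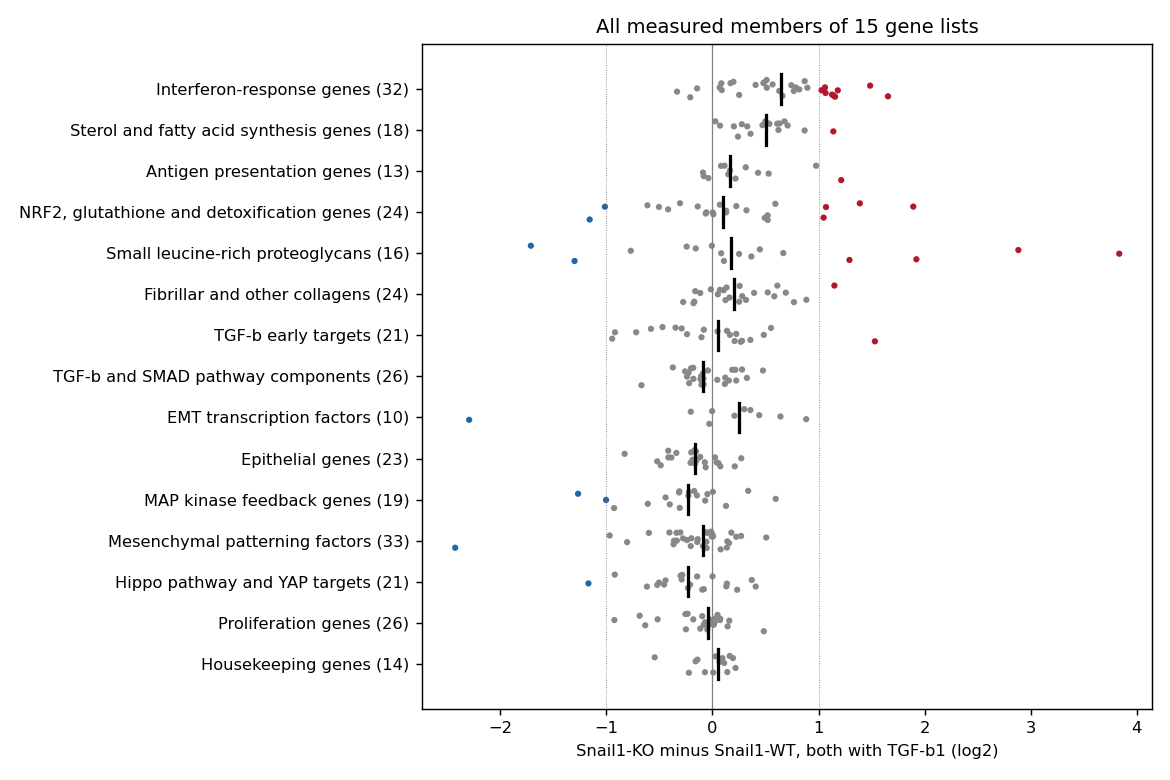
Snail1-KO minus Snail1-WT in the treated pair (log2) for every measured member of 15 gene lists, with the number of members in parentheses and black bars at list medians; points are spread vertically at random for display. Red and blue points are at least 2-fold apart. The interferon (0.65) and sterol lists (0.51) have the medians furthest from 0 among those drawn.

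Matrix genes lay on both sides of 0. Small leucine-rich proteoglycans bind collagen and growth factors; among 16 measured genes, 4 lay 2-fold or more above Snail1-WT levels and 2 as far below, against 1.07% and 0.631% of analysed genes. Aspn, Omd, Ogn and Ecm2, which lie side by side on chromosome 13, were the 4 higher ones, and Ecm2 (3.79 and 5.08 in the treated pair) did not pass the filter. Decorin (Dcn), which organises collagen fibrils and binds TGF-b1, measured 10.04 and 8.33 in the treated pair and 10.24 and 8.65 in the untreated pair. Fibromodulin (Fmod) measured 7.94 and 6.65 with TGF-b1 and 7.85 and 5.69 without, and its second probe set differed by -1.36. Biglycan (Bgn) measured 12.81 and 12.80.

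Collagen genes were mostly higher, by smaller amounts. The median of 24 measured members was 0.21 treated and 0.16 untreated. In the treated pair 18 of the 24 were above 0 and 1 reached 2-fold, against 49.6% and 1.07% of analysed genes. That gene, Col11a1, a minor fibrillar collagen, measured 7.24 and 8.39 in the treated pair and 6.82 and 7.80 in the untreated pair. The major fibrillar collagen gene Col3a1 measured 10.44 and 11.32, and Col6a2, a microfibril collagen, 9.41 and 10.18. Col1a1 differed by 0.16 and Col12a1 by -0.11.

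Among matrix glycoproteins, tenascin C (Tnc), a protein of injured and remodelling tissue, measured 10.79 and 9.51 in the treated pair and 10.42 and 8.73 in the untreated pair. Periostin went the other way, at 10.18 and 11.25. Of 27 measured matrix proteases and inhibitors, 3 were at least 2-fold lower and none was higher, against 0.631% and 1.07% of analysed genes. These were Adam12 (-1.90), Mmp3 (-1.75) and Adamts9 (-1.59). The inhibitor gene Timp1 differed by -0.73. Contractile and myofibroblast genes had a median of 0.01 over 22 measured members, with calponin (Cnn1) at -0.76 and transgelin (Tagln) at -0.62, and none reached 2-fold.

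The receptors and SMADs that carry the TGF-b signal mostly differed little. Of 26 measured components none was 2-fold apart, against 1.07% higher and 0.631% lower among analysed genes. At those shares a list this short may hold none. Analysed members lay between -0.37 (the co-receptor gene Tgfbr3) and 0.48 (the type I receptor gene Acvr1b). The receptor gene Acvrl1, which did not pass the filter, differed by -0.67. The ligand gene Tgfb3 measured 9.30 and 9.58 in the treated pair and 8.30 and 7.79 in the untreated pair.

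Early targets of TGF-b differed in both directions in the treated pair, from -0.94 to 1.53. At 1.5-fold 1 of 21 was higher and 3 were lower, against 5.14% and 2.998% of analysed genes. Their median difference over 21 genes was 0.05 with TGF-b1 and -0.40 without, and 11 of 21 were above 0 with TGF-b1 against 4 of 21 without. Among all analysed genes 49.6% were above 0 with TGF-b1 and 49.96% without. The matricellular gene Ccn2 measured 10.72 and 10.64 in the treated pair, against 7.88 and 6.82 in the untreated pair. Pmepa1, which dampens SMAD signalling, measured 10.20 and 10.25 with TGF-b1 and 7.69 and 7.18 without. Those genes differed by -0.08 and 0.05 in the treated pair. Has2, the hyaluronan synthase gene, kept a gap, at 10.58 and 9.67 treated and 7.97 and 7.08 untreated. Angptl4, a lipase inhibitor gene, was at 6.48 and 5.54 in the treated pair.

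Rasl11b, an early TGF-b target that encodes a small GTPase-like protein, was the 1 member at least 2-fold apart. It measured 5.98 in treated Snail1-WT cells and 7.51 in treated Snail1-KO cells, but 4.16 and 4.08 in the untreated cells, both below 4.51. Its difference was 1.53 with TGF-b1 and -0.075 without. Skil, which encodes a SMAD co-repressor, showed a smaller gap of this kind, at 8.27 and 8.82 treated and 5.65 and 5.51 untreated.

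Most other EMT transcription factors were not lower along with Snai1. Twist2 measured 5.93 and 6.82 in the treated pair and 6.26 and 6.35 in the untreated pair. Snai2, the closest relative of Snai1, measured 9.14 and 9.79 with TGF-b1 and 10.27 and 10.66 without. Prrx1 and Zeb1 differed by 0.44 and 0.36. Over 10 measured factors 6 were above 0, and Snai1, the targeted gene, was alone 2-fold apart. Among analysed genes 49.6% were above 0, 1.07% were 2-fold higher and 0.631% lower.

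Epithelial genes, the classic targets of Snail1 repression, showed no shift upwards as a list, with a median of -0.16. Of 23 measured members 6 were above 0 and none was 2-fold apart. Among analysed genes 49.6% were above 0, 1.07% were 2-fold higher and 0.631% lower. The 15 members that passed the filter had a median of -0.07, with 6 above 0 and 9 below. The E-cadherin gene Cdh1 measured 4.79 in treated Snail1-WT and 4.72 in treated Snail1-KO cells. The P-cadherin gene Cdh3 measured 9.10 and 8.27. In contrast the N-cadherin gene Cdh2, named after its values were seen, measured 7.54 and 8.84 in the treated pair, with a second probe set at 5.23 and 6.02.

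Feedback inhibitors of MAP kinase signalling, which are induced by the pathway they restrain, were mostly below 0. Of 19 measured members 15 were lower, with a median of -0.23 treated and -0.19 untreated, and 2 were at least 2-fold lower. Among all analysed genes 49.6% were above 0 and 0.631% were 2-fold lower. The ERK phosphatase genes Dusp4 and Dusp5 measured 8.23 and 6.96, and 7.65 and 6.65, in the treated pair. In the untreated pair Dusp4 measured 7.23 and 5.80, and Dusp5 6.35 and 5.68. Both were higher with TGF-b1 in either genotype, and both were lower in Snail1-KO cells with and without it. Spry2, an inhibitor of receptor tyrosine kinase signalling, was at 6.51 and 5.58. The phosphatase gene Dusp1 differed by 0.34 in the other direction.

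Mesenchymal patterning factors were also mostly lower, by small amounts, with 24 of 33 measured members below 0. Their median was -0.09 in both pairs, against -0.02 over all 22180 genes in the treated pair. Of all analysed genes 49.6% were above 0 and 0.631% were 2-fold lower with TGF-b1. The forkhead gene Foxf1, active in lateral plate mesoderm, measured 7.88 in treated Snail1-WT cells and 5.45 in treated Snail1-KO cells (untreated 7.62 and 5.85), and was the 1 member that was 2-fold apart. The odd-skipped genes Osr1 and Osr2 differed by -0.97 and -0.80, and the T-box gene Tbx3 by -0.60. Hippo pathway and YAP target genes had a median of -0.23 over 21 members, of which 15 were lower. Yap1 itself, the transcriptional co-activator that the pathway restrains, measured 9.09 and 7.92, while a second probe set, below the filter, differed by -0.20.

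Growth factor genes differed in both directions. In the list of PDGF, FGF and VEGF ligands and receptors, 17 of 28 measured members were below 0, with a median of -0.27. There 1 member was 2-fold higher (Angpt1) and 1 lower (Pdgfd). The IGF list had 1 of 15 measured members 2-fold higher and 2 lower. Among all analysed genes 49.6% were above 0, 1.07% were 2-fold higher and 0.631% lower. In the IGF axis Igfbp3 measured 8.85 and 6.93 in the treated pair and 9.02 and 6.79 in the untreated pair. Igf2 measured 7.07 and 5.30 treated and 7.09 and 5.18 untreated. Igf1 differed by -0.67, and Igfbp6 was higher. The acute phase gene Saa3 measured 9.26 and 7.92 and the complement gene C4b 7.37 and 6.10, with 9.39 and 8.02, and 7.06 and 5.47, in the untreated pair. They were the 2 members of their list of 16 measured genes that were 2-fold lower, against 0.631% of analysed genes. Dlk1, which restrains fat cell formation, measured 7.54 and 6.31 in the treated pair. The alkaline phosphatase gene Alpl, a marker of early bone formation, was at 6.67 and 4.85, but its second probe set differed by -0.63. Other genes of the osteogenic list went both ways. Higher members included Omd (2.88), the pyrophosphate transporter gene Ank (0.81), Dlx5 (0.62) and Msx2 (0.46). Lower members included Dlx3 (-0.34), Tnfrsf11b (-0.25) and Sost (-0.21). Of the 17 measured members of that list 9 were above 0 and 8 below, with a median of 0.12. At least 2-fold higher were 2 and lower was 1, against 1.07% and 0.631% of analysed genes. The 2 higher ones include Phex (1.09), which did not pass the filter. Hox genes, which record the position of origin along the body, had no member 2-fold apart among 30 measured.

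The genes 2-fold apart with TGF-b1 were also read in the untreated pair, which shares no array with the treated pair. There 110 genes (0.827%) were at least 2-fold higher and 99 (0.744%) lower. Of the 142 genes higher with TGF-b1, 74 were 2-fold and 132 at least 1.5-fold higher without it, and 141 had the same sign. Of the 84 lower genes, 63 were 2-fold and 79 at least 1.5-fold lower, and 83 had the same sign. Median differences of the higher genes were 1.19 treated and 1.03 untreated, and of the lower genes -1.23 and -1.32. These genes were chosen by their treated difference, which favours large treated values. The medians therefore cannot show whether the gap had the same size without TGF-b1. A difference between the cell populations other than Snail1 would appear in both pairs too, so the second pair is no replicate of an effect of Snail1.

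**Figure D4:**
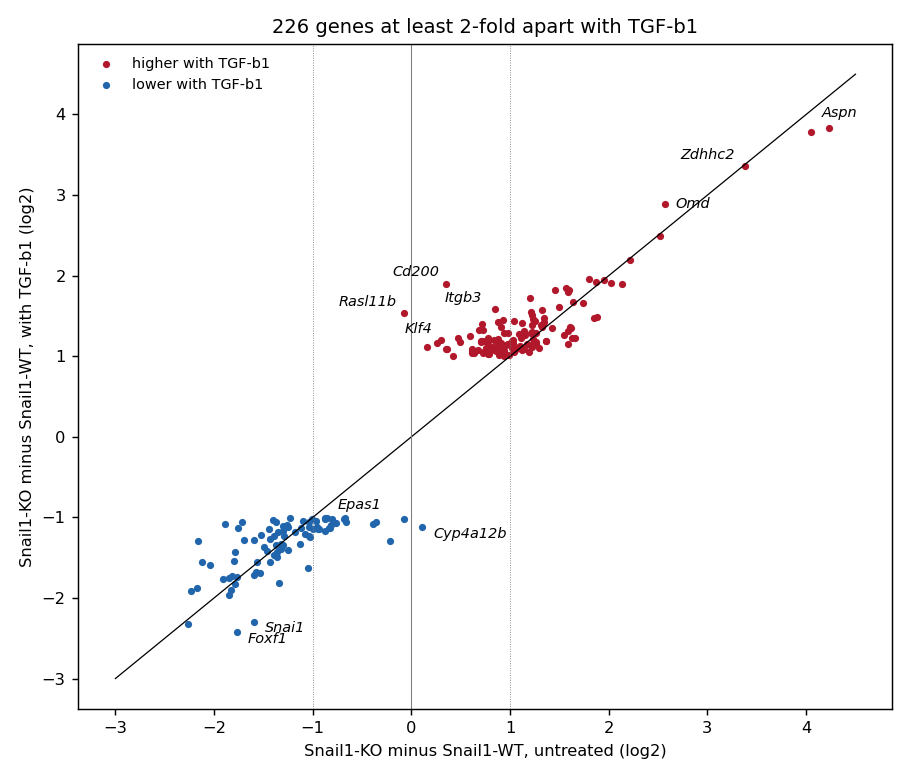
Snail1-KO minus Snail1-WT with TGF-b1 (vertical axis, log2) against the same difference without TGF-b1 (horizontal axis, log2) for the 226 genes at least 2-fold apart with TGF-b1. The solid line marks equal differences and dotted lines 2-fold untreated; Rasl11b and Cyp4a12b are the 2 genes whose sign differs between the pairs.

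The genes whose gap was small without TGF-b1 were few: 10 of the higher and 5 of the lower genes were under 1.5-fold there. Cd200, a surface glycoprotein that restrains myeloid cells, measured 3.95 in treated Snail1-WT and 5.85 in treated Snail1-KO cells. Untreated cells gave 4.02 and 4.37, so that the treated Snail1-KO array stood above the other 3. Those 3 levels lay below 4.51 and the gene passed the filter through its 1 high array, so the size of its difference is uncertain. Klf4, a zinc finger factor of the pluripotency set, measured 7.58 and 8.78 in the treated pair and 8.24 and 8.54 in the untreated pair. Its level was lower with TGF-b1 in Snail1-WT cells and slightly higher with it in Snail1-KO cells. Adamtsl2, whose secreted product is tied to the availability of latent TGF-b, measured 5.93 and 7.05 treated and 5.18 and 5.34 untreated. Arhgef6, an exchange factor for RAC and CDC42, measured 4.995 and 6.16 treated and 5.36 and 5.61 untreated. Twist2 (0.88 and 0.09) and Plin4, a lipid droplet gene (0.95 and 0.05), came close to this pattern without reaching 2-fold.

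Among the lower genes, Cyp4a12b, a fatty acid hydroxylase gene, measured 5.58 and 4.46 in the treated pair and 5.35 and 5.46 in the untreated pair. The hypoxia factor gene Epas1 measured 5.22 and 4.14, and the serine protease gene Prss33 5.25 and 4.18, with TGF-b1. These levels in treated Snail1-KO cells lay below 4.51, so the sizes are uncertain. Others of the 12 lower genes with the smallest untreated gaps still differed there. Nr1d1, a repressor of the circadian clock, measured 8.38 and 7.25 treated and 8.92 and 8.08 untreated. Fam110c measured 6.83 and 5.74 treated and 5.85 and 5.03 untreated. Sema7a, a membrane-anchored semaphorin that binds integrins, measured 6.36 and 5.34 treated and 5.80 and 4.999 untreated.

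The position of the genes along chromosomes was described last. On chromosome 9, 17 of 748 analysed genes (2.27%) were 2-fold lower, against 0.631% of all analysed genes, and 10 of these lay in 1 stretch of 16 analysed genes from Casp1 to Arhgap42. There 13 of 16 were at least 1.5-fold lower, with a median of -1.16. In the rest of the chromosome 7 of 732 (0.956%) were 2-fold lower. The stretch holds genes of unrelated function: the inflammatory caspase gene Casp1 (7.61 and 6.24 in the treated pair), Pdgfd, Dcun1d5, which helps attach NEDD8 to cullins (10.11 and 8.56), the cilium gene Cfap300 (7.99 and 6.53) and Yap1. Its ends were chosen with earlier results known. Outside it 74 genes were 2-fold lower. Mmp3, Pdgfd, Yap1, Birc2 and Birc3 therefore sit in a block of neighbours that differed together, as do the 2 apoptosis list members that were 2-fold lower (Casp1 and Casp12).

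**Figure D5:**
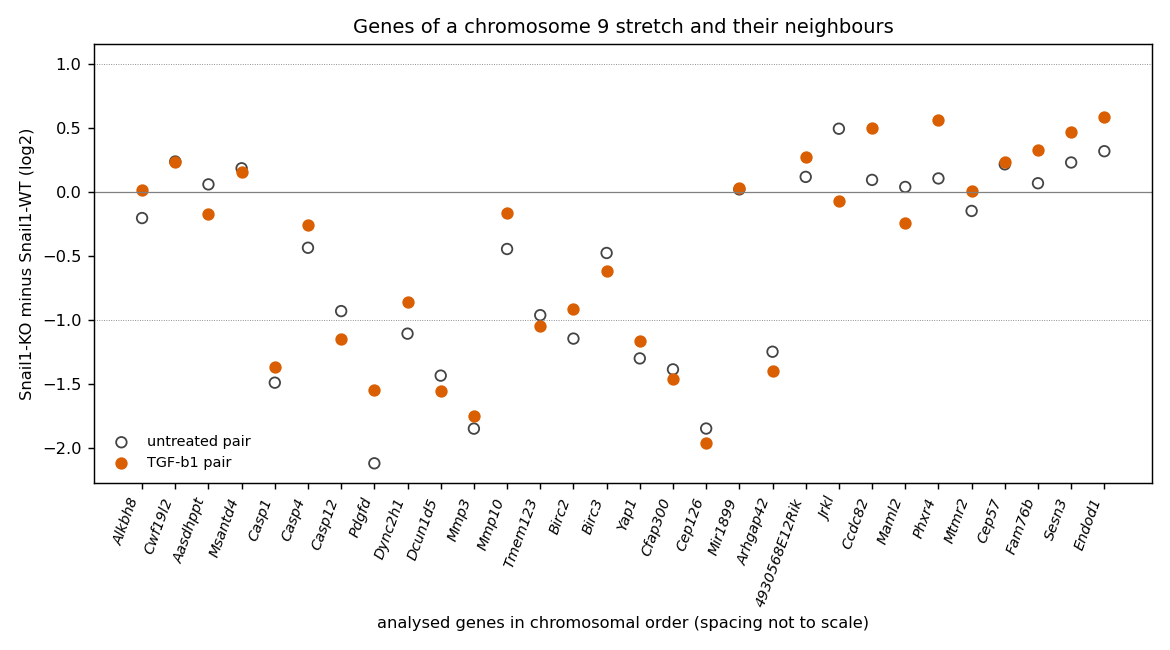
Snail1-KO minus Snail1-WT (log2) for 16 neighbouring analysed genes of chromosome 9, Casp1 to Arhgap42, and genes on both sides in chromosomal order, with filled points for the TGF-b1 pair and open points for the untreated pair, 1 array per group. Within the stretch 13 of 16 genes lie at least 1.5-fold below 0 with TGF-b1; Mir1899 (0.03), Mmp10 (-0.16) and Casp4 (-0.26) do not.

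Runs of at least 3 neighbouring analysed genes that were each 1.5-fold apart in 1 direction numbered 9. They included Aspn, Omd and Ogn on chromosome 13, the interferon-inducible genes Ifi204, Mndal and Ifi202b on chromosome 1 (0.70 to 1.07), and Ly6c1, Ly6c2 and Ly6a2 on chromosome 15 (0.64 to 1.11). Members of these last families are close copies of each other, so probes may be shared between them. By chromosome, the share of 2-fold higher genes ran from 0.192% on chromosome 7 to 2.10% on chromosome 15.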

How the data were processed

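RNA of 4 cultures, 1 per group, was measured on Affymetrix arrays. The authors deposited log2 values. The submitters' processing notes name RMA and R 3.1.1, and the genome build and annotation are not stated in the sources used here. RMA equalises array distributions, so a shift of most genes in 1 direction would be removed. Precision is limited by the number of arrays. Of 41345 probe sets 23521 had 1 symbol in the platform annotation, 1814 several and 16010 none given here, and 21994 of 22180 genes matched RefSeq GRCm38.p6.

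Differences between arrays were computed in Python 3.11.15 (numpy 2.4.6, pandas 2.3.3, matplotlib 3.10.9) and checked on simulated data. limma 3.58.1 in R 4.3.3 served only for cyclic loess. The SD yardstick used 501 genes of like level.

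Named by rule were Snai1, the 25 largest differences each way, the 12 each way with the untreated difference nearest to 0 or opposite, up to 5 genes per list (44 lists) and defining markers. Predicted, clone-named and small RNA genes, receptors of smell and antigen receptor segments went unnamed. Members and lists were chosen with earlier results of these data known. The choice of defining markers, the spelling of the interferon element and further members named beside a list followed a look at the values. Alternatives were other filters, scalings, probe sets and fold thresholds.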

Additional observations from a re-analysis of the deposited data

Results flagged for a closer look

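In 2 genes the difference between Snail1-KO and Snail1-WT cells had opposite signs in the treated and the untreated pair, and that contrast was not tested. Rasl11b differed by 1.53 with TGF-b1 and by -0.075 without, where it measured 4.16 and 4.08, below 4.51, the lowest mean kept. Cyp4a12b differed by -1.12 with TGF-b1 and by 0.11 without, and it measured 4.46 in treated Snail1-KO cells.

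Probe sets without a gene name entered no comparison. Of the 6386 with a mean of at least 4.51, 135 were at least 2-fold higher and 97 at least 2-fold lower in treated Snail1-KO cells. Among the 13308 genes analysed these numbers were 142 (1.07%) and 84 (0.631%). The share was thus larger in both directions among the unnamed probe sets, which are fewer.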

How the results depend on the processing

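Among genes named by rule and at least 2-fold apart, none reversed its sign under the alternatives tried. Only the interferon list had a median at least 1.5-fold apart, and that median kept its sign. At 1.5-fold, 684 genes were higher and 399 lower. In the upper 40% of genes by level 93 were higher and 62 lower. Without a filter the counts over 22180 genes were 161 and 99. The filters change how many genes are counted, so these counts are not shares of the same total. With array medians equalised the counts were 168 and 72, and Snai1 moved only to -2.24. Of the 226 genes 2-fold apart, 16 had several probe sets. On the second brightest, 15 of these kept their sign, but only 1 (Fmod) was still 2-fold apart. Mindy2, which was not named by rule, reversed from 1.05 to -0.33. Another 2 alternatives were added after the data were seen: requiring 4.51 on both treated arrays kept 196 of the 226, and leaving out the chromosome 9 stretch kept 216. Values of single genes and list medians were compared with the SD yardstick, not with replicates. Changing the probe set moved 11 named genes by the mean of probe sets and 9 by the second one. The upper 40% moved 12 list medians, among them the epithelial median from -0.16 to 0.05. No paired analysis was possible because each group has 1 array and the labels give no replicate numbers to serve as a block.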
